A study of Mus musculus with 4 samples.

Results

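The comparison set 4 coronal mouse brain sections in which the chemokine gene Cx3cl1 was nearly absent against 4 sections that expressed it, paired on 4 coverslips. Each coverslip held 2 sections, and all 8 sections of the series entered. Sections were chosen by their measured Cx3cl1 level: a section was called Cx3cl1-absent when fewer than 20 of every 10000 gene counts were Cx3cl1, and Cx3cl1-expressing when more than 100 were. According to the labels, 1 section per coverslip was from a wild-type mouse and the other from a Cx3cl1(-/-) mouse, but no file says which is which, so genotype was read here from the Cx3cl1 level alone. Both sections of coverslips 1 and 2 were male and both of coverslips 3 and 4 were female. All mice, of either genotype, were at postnatal day 5 and had lost the whiskers of the right snout at postnatal day 4, 24 h earlier. The files do not mark the hemispheres, so the deprived and the intact cortex of each section were pooled, and no unlesioned animal was included. Sections were 10 µm thick and contained the barrel cortex, the part of somatosensory cortex that maps the whiskers. They also held the brain tissue around it.

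Expression was measured by MERFISH, which images single RNA molecules inside tissue and reads the gene of each one from an optical barcode. The panel held 140 genes and 40 blank barcodes that match no probe and so count false readings. Of 863580 segmented cells, 858862 lay in the 8 sections, and 793788 of these had at least 20 gene counts and were kept: 387585 in absent and 406203 in expressing sections. Nothing in the labels says more about how many mice the sections came from, so the p-values measure the spread between these sections.

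CX3CL1, or fractalkine, is made by neurons as a membrane-bound chemokine and can be shed from the cell surface. Its receptor CX3CR1 is carried in the brain chiefly by microglia, the resident macrophages that clear debris and remodel synapses. Astrocytes take up glutamate, supply neurons with glutamine and also take part in synapse remodelling. The panel was built largely around the Wnt pathway, in which secreted Wnt proteins act on Frizzled receptors and their co-receptors.

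Cx3cl1 itself chose the sections, so its values are a description and were not tested. Over all cells of a section, absent sections held 5.21, 6.51, 6.15 and 6.83 Cx3cl1 counts per 10000 gene counts on coverslips 1 to 4. The expressing sections of the same coverslips held 273, 202, 236 and 201. No section lay between 6.83 and 201, so the rule's limits fell in an empty gap. Among kept cells, neurons of expressing sections carried 342, 244, 288 and 246 Cx3cl1 counts per 10000, their highest level among the 3 cell classes. Microglia of these sections carried 89.7, 64.3, 108 and 80.8. Astrocytes carried 73.2, 51.8, 66.3 and 64.5. In absent sections the neurons were at 5.39 to 7.03, microglia at 3.35 to 6.60 and astrocytes at 2.50 to 3.68. The highest single blank barcode of each absent section reached 7.10 to 16.03 in neurons, 8.49 to 14.4 in microglia and 5.74 to 9.71 in astrocytes. The Cx3cl1 left in absent sections was thus below the highest false reading in every class. In neurons of absent sections it was above the median blank barcode, which was at 2.40 to 3.45. Whether any of it was true signal was not tested. At least 1 Cx3cl1 count was seen in 91.6% to 95.7% of neurons of expressing sections and in 14.2% to 22.1% of neurons of absent sections. The counts of Cx3cl1 in microglia and astrocytes of expressing sections were above the blanks, and how much of them belongs to neighbouring neurons was not tested.

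**Figure D1:**
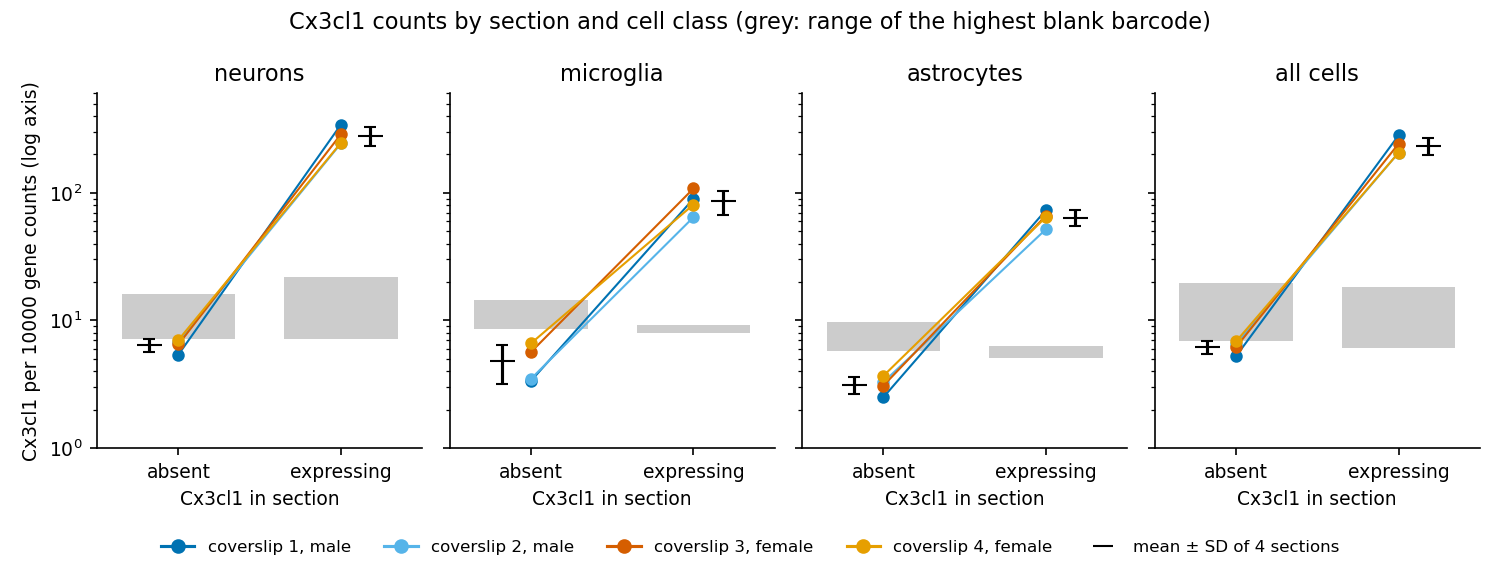
Cx3cl1 counts per 10000 gene counts (log axis) in neurons, microglia, astrocytes and all kept cells of each section, with lines joining the 2 sections of a coverslip, black marks giving mean ± SD of 4 sections and grey bands giving the range of the highest blank barcode. The neurons of expressing sections lie between 244 and 342, and those of absent sections between 5.39 and 7.03, below the blank band.

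Cells were classed by marker counts: microglia had at least 3 counts each of Csf1r and Cx3cr1, astrocytes at least 5 of Slc1a3 and 3 of Aqp4, and neurons at least 30 of Meg3. This gave 12190 microglia (5420 in absent and 6770 in expressing sections), 72782 astrocytes (34542 and 38240) and 406963 neurons (188464 and 218499). The classes could overlap, and 79.4% to 90.4% of microglia, 85.1% to 91.5% of astrocytes and 97.0% to 98.7% of neurons of a section belonged to no other class. Genes that had not chosen the microglia marked them as well: C1qa stood at 329 ± 19.6 per 10000 gene counts (SD, n = 4) in microglia of absent sections, against 14.2 ± 1.72 in astrocytes and 6.997 ± 1.40 in neurons. Glul stood at 444 ± 117 (SD, n = 4) in astrocytes of expressing sections, against 189 ± 36.6 in microglia and 76.5 ± 2.38 in neurons. In absent sections it set astrocytes less far apart from microglia, at 225 to 339 against 175 to 215, with neurons at 43.9 to 60.6. The microglia class also held 593 ± 46.0 Meg3 counts per 10000 in absent and 671 ± 137 in expressing sections, and how much of it came from adjoining neurons was not tested. Mrc1 and Lyve1, which mark macrophages of the brain's borders, were at 120 ± 20.4 and 34.8 ± 10.5 in the microglia class of absent sections, and at 140 ± 48.6 and 43.3 ± 21.6 in that of expressing sections.

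Low-count cells were more frequent in the absent section of each coverslip. Cells under the count minimum made up 27.5%, 13.3%, 5.66% and 1.60% of absent sections on coverslips 1 to 4, and 7.75%, 3.23%, 1.85% and 0.982% of expressing sections. Gene counts per kept cell differed little on the male coverslips, at 188 and 192 in absent against 193 and 194 in expressing sections. On the female coverslips the absent sections were shallower, at 185 and 275 against 281 and 369. Alternatives left out low-signal squares (200-unit squares where 20% or more of the cells fell under the count minimum) or thinned the deeper section of each coverslip to the depth of the other.

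The first question was whether the cell classes differed in number. Microglia made up 1.35%, 1.14%, 1.28% and 1.72% of the kept cells of absent sections on coverslips 1 to 4. In expressing sections they made up 1.5015%, 1.39%, 1.68% and 2.05%. The absent section had the lower share on 4 of 4 coverslips, although the groups overlapped, with a mean log2 ratio of absent over expressing of -0.27 ± 0.10 (SD, n = 4). With 4 pairs an exact two-sided sign-flip permutation test cannot give a p below 0.125, and that smallest value was reached here (p = 0.125, 0.219 adjusted over 14 measures). After the deeper sections were thinned, the share of microglia was still lower in the absent section of each coverslip, by a smaller mean log2 ratio of -0.15.

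Microglia density gave the same order. Absent sections held 39.2, 31.5, 39.9 and 61.0 microglia per 1e+06 square coordinate units, and expressing sections 43.1, 46.1, 47.4 and 76.2. The mean log2 ratio was -0.31 ± 0.18 (SD, n = 4; exact permutation p = 0.125). It was -0.19 with low-signal squares left out and -0.19 after thinning (exact permutation p = 0.25 for each), and the absent section was then no longer lower on every coverslip. The difference was not found in every part of the section. Upper-layer squares were the third of each section's squares richest in the cortical layer genes Cux2 and Rorb. The cut was set within each section and ran from 66.7 to 96.9 counts of these genes per 10000. These squares thus need not be the same tissue in paired sections. In them absent sections held 44.3, 31.2, 32.1 and 51.9 microglia per 1e+06 square units and expressing sections 36.3, 37.996, 33.5 and 51.9. There the mean log2 ratio was -0.01 ± 0.24 (SD, n = 4), with the absent section lower on 2 of 4 coverslips (exact permutation p = 1). In the remaining squares the absent sections held 36.1, 30.9, 42.3 and 63.3 and the expressing sections 45.3, 48.8, 52.8 and 86.4, lower on 4 of 4 coverslips. The difference between the 2 kinds of square was not tested.

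Neurons made up 43.3%, 45.5%, 48.5% and 54.4% of the kept cells of absent sections and 46.2%, 51.7%, 56.6% and 59.8% of those of expressing sections. The mean log2 ratio was -0.16 ± 0.06 (SD, n = 4), lower in the absent section on 4 of 4 coverslips (exact permutation p = 0.125), and -0.09 after thinning. With low-signal squares left out it was -0.09 (exact permutation p = 0.25), and the direction was no longer shared by every coverslip. Neurons with at least 5 counts of Gad1 plus Gad2, the enzymes that make the inhibitory transmitter GABA, made up 36.9%, 28.7%, 29.5% and 38.2% of neurons in absent sections. In expressing sections they made up 37.4%, 35.998%, 38.9% and 43.2%. This share was lower on 4 of 4 coverslips, with a mean log2 ratio of -0.23, and was added without a test. After thinning the mean log2 ratio was -0.17, still lower on 4 of 4 coverslips, but coverslip 1 was near equal at 36.9% against 37.0%. Astrocyte shares had no common direction, at 9.14%, 9.07%, 6.96% and 10.4% in absent and 9.19%, 7.55%, 9.27% and 11.4% in expressing sections (exact permutation p = 0.625). Cell volumes were close in all 3 classes, with mean log2 ratios of -0.02 each.

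**Figure D2:**
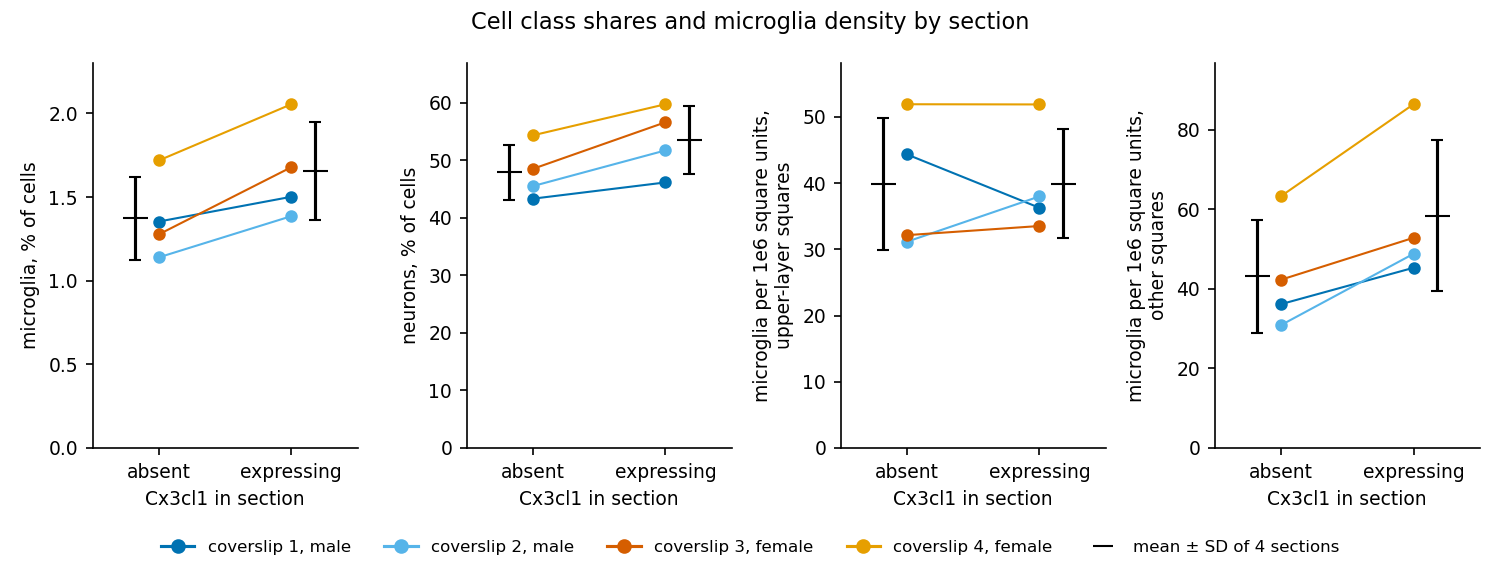
Microglia and neurons as percent of kept cells, and microglia per 1e+06 square coordinate units in upper-layer squares and in the other squares, for each section, with lines joining the sections of a coverslip and black marks giving mean ± SD of 4 sections. The lines rise from absent to expressing for both shares and for the other squares, and go either way in the upper-layer squares.

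In microglia, no gene passed the threshold between section types. The quasi-likelihood test of edgeR, with the coverslip as a block, called 0 of 137 genes at an adjusted p under 0.05 (0% called), while 14 had an unadjusted p under 0.05 and DESeq2 called 2, C1qa and P2ry12. C1qa encodes a chain of the complement protein C1q, which tags synapses for removal by microglia. Its level was 301, 341, 332 and 343 counts per 10000 gene counts in microglia of absent sections and 403, 480, 467 and 437 in those of expressing sections. All 4 absent sections were below all 4 expressing sections. The log2 difference was -0.50 ± 0.12 (SE, n = 4 coverslips), and the adjusted p of edgeR was 0.0711. C1qa was called in 5 of 16 alternative settings, with adjusted p-values from 0.0131, in microglia that belonged to no other class (a setting chosen after the data were seen), to 0.536, without coverslip 2. It was lower in absent sections in each of them.

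P2ry12 encodes the purine receptor by which resting microglia sense injury. Its level in microglia was 216, 271, 151 and 128 counts per 10000 in absent sections and 126, 118, 113 and 94.4 in expressing sections. Every absent section was above every expressing section, with the widest gap on coverslip 2. The log2 difference was 0.64 ± 0.15 (SE, n = 4 coverslips), with an adjusted p of 0.0711 in edgeR. P2ry12 was called in 3 of 16 alternative settings, with adjusted p-values from 0.000404, where microglia with at least 3 counts of Mrc1 plus Lyve1 were left out, to 0.664, in upper-layer squares. After thinning the log2 difference was 0.48 and the adjusted p 0.386.

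The other microglial genes of the panel lay on both sides of 0. Of the 6 tested members, C1qa and P2ry12 included, 0 were called in either direction, and the median of the 6 log2 difference was 0.04 against 0.01 for all 137 genes. Tmem119, a surface marker of resident microglia, was at 174 ± 20.7 in absent and 157 ± 21.3 in expressing sections (SD, n = 4). Itgam, which encodes the complement receptor subunit CD11b, was at 116 ± 10.3 and 91.8 ± 9.82, higher in the absent section of each coverslip (log2 difference 0.27 ± 0.14, SE; edgeR adjusted p = 0.558). Ptprc, the gene of the leukocyte antigen CD45, was at 20.1 ± 3.34 and 19.2 ± 2.72. Cx3cr1, the fractalkine receptor, was at 769, 757, 635 and 612 in absent and 744, 755, 643 and 547 in expressing sections. Csf1r, the growth factor receptor on which microglia depend, was at 717 ± 34.6 and 738 ± 33.99. These last genes chose the cells and were not tested.

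Among the next genes by unadjusted p in microglia, several are markers of other cells. Aldh1l1, an astrocyte enzyme, had a log2 difference of 0.44 ± 0.15 (SE), and Pecam1, an endothelial adhesion molecule, 0.38 ± 0.14. Sdc4, a heparan sulfate syndecan, had -0.44 ± 0.16 and Aldoc, an astrocyte-enriched glycolytic enzyme, -0.35 ± 0.15. Their edgeR adjusted p-values lay between 0.335 and 0.357. The 3 vascular genes had a median log2 difference of 0.28 and the 5 oligodendrocyte lineage genes one of 0.24 in microglia, with 0 called in both lists. The part of RNA from neighbouring cells in these values was not tested.

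**Figure D3:**
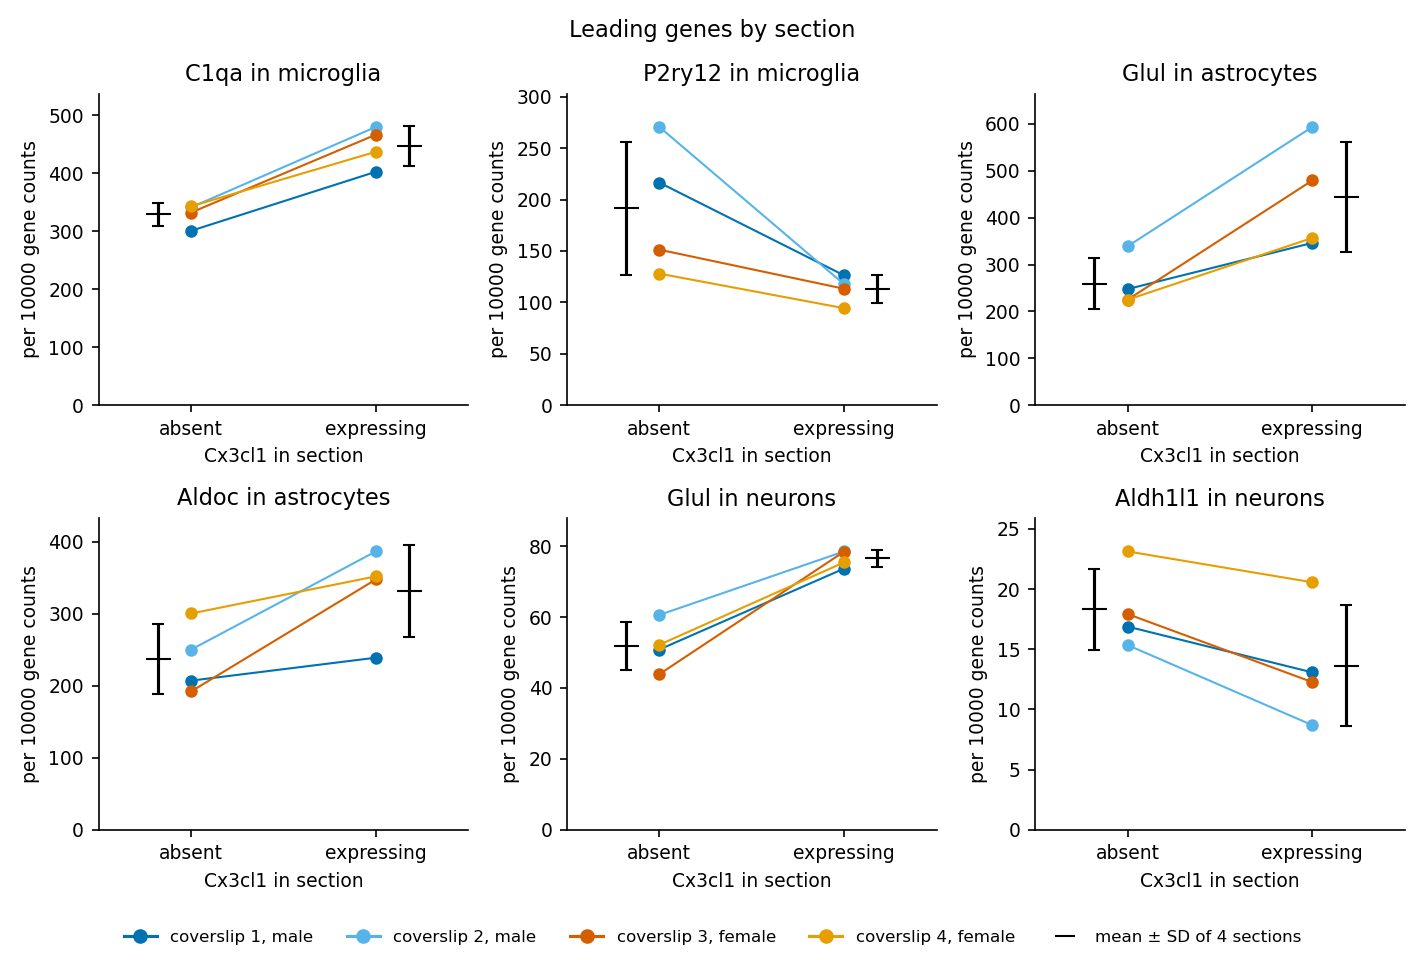
Counts per 10000 gene counts of C1qa and P2ry12 in microglia, Glul and Aldoc in astrocytes, and Glul and Aldh1l1 in neurons, for each section, with lines joining the sections of a coverslip and black marks giving mean ± SD of 4 sections. The absent and expressing sections do not overlap for C1qa and P2ry12 in microglia or for Glul in astrocytes and neurons, and they overlap for Aldoc and Aldh1l1.

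In astrocytes, Glul and Musk fell in absent sections. The same edgeR test called 2 of 137 genes (1.46%), both lower. Glul encodes glutamine synthetase, with which astrocytes turn glutamate into glutamine. Its level in astrocytes was 248, 339, 225 and 225 counts per 10000 in absent sections and 346, 593, 479 and 357 in expressing sections. All 4 absent sections were below all 4 expressing sections, and coverslip 3 had the widest gap. The log2 difference was -0.83 ± 0.13 (SE, n = 4 coverslips), with an edgeR adjusted p of 0.00989. Without coverslip 3 the difference was -0.72 and the adjusted p 0.0685. Without the coverslip as a block the adjusted p was 0.0886. The difference lay in both kinds of square: Glul in astrocytes was at 302 ± 73.0 in absent and 496 ± 104 in expressing sections within upper-layer squares, and at 235 ± 42.5 and 422 ± 121 in other squares (SD, n = 4).

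Musk, a receptor kinase of the neuromuscular junction with a Frizzled-like domain, was far lower in level. It was at 2.41, 1.38, 2.09 and 1.39 counts per 10000 in astrocytes of absent sections and at 4.38, 3.42, 7.69 and 4.70 in those of expressing sections. The log2 difference was -1.52 ± 0.17 (SE, n = 4 coverslips; edgeR adjusted p = 0.00135), and it was lower on 4 of 4 coverslips. However, Musk was above every blank barcode in only 1 of the 8 sections. In upper-layer squares it was at 1.501 ± 0.57 and 1.46 ± 0.10 (SD, n = 4), with a log2 difference of 0.01. In the other squares it was at 2.03 ± 0.74 and 6.44 ± 2.35, and the difference between the 2 kinds of square was not tested. Without coverslip 3 the adjusted p of Musk in astrocytes was 0.0639.

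The other astrocyte genes did not pass the threshold. Aldoc was at 207, 250, 192 and 301 in astrocytes of absent sections and at 239, 387, 348 and 352 in those of expressing sections, lower on 4 of 4 coverslips with overlapping groups (log2 difference -0.54 ± 0.14, SE; edgeR adjusted p = 0.116). Fzd1, a Frizzled receptor, was at 29.1 ± 3.56 and 38.5 ± 6.50, and Emx2, a forebrain transcription factor, at 9.87 ± 1.26 and 12.7 ± 2.11 (SD, n = 4). Both had the adjusted p of Aldoc, and DESeq2 called all 3. Sdc4 had a log2 difference of -0.48 ± 0.15 (SE). Of the 7 tested astrocyte genes, 0 were called, and their median log2 difference was -0.21 against -0.01 for all 137 genes. Gfap, an intermediate filament that rises in reactive astrocytes, was at 398 ± 28.2 in absent and 467 ± 90.6 in expressing sections (log2 difference -0.28 ± 0.15, SE; adjusted p = 0.385). Apoe, the main lipid carrier, was at 1841 ± 320.4 and 1773 ± 148. Aldh1l1 was higher in the absent section of each coverslip, at 212, 192, 251 and 258 against 188, 144, 158 and 240 (log2 difference 0.27 ± 0.11, SE; adjusted p = 0.274).

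In the neuron class, Glul fell and Aldh1l1, Wnt10a and P2ry12 rose in absent sections, Wnt10a and P2ry12 at levels below the highest blank barcode. The edgeR test called 4 of 138 genes (2.90%). Glul was at 50.8, 60.6, 43.9 and 52.2 counts per 10000 in neurons of absent sections and at 73.7, 78.5, 78.5 and 75.4 in those of expressing sections, with no overlap. The log2 difference was -0.58 ± 0.10 (SE, n = 4 coverslips; edgeR adjusted p = 1.47e-06). With cell volume in place of counts as the offset, no gene was called in neurons, and the edgeR adjusted p of Glul was 0.278. It was seen in neurons with at least 5 counts of Gad1 plus Gad2, at 44.2 ± 4.69 against 61.0 ± 3.48 (SD, n = 4), and in the other neurons, at 56.1 ± 7.83 against 87.5 ± 2.57. How much of the Glul in neuronal outlines came from astrocytes was not tested. The gene was also called in neurons that belonged to no other class, a setting chosen after the data were seen. These were 97.0% to 98.7% of the neurons of a section, so this setting cannot address the part of astrocytes.

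Aldh1l1 in neurons was at 16.9, 15.3, 17.9 and 23.1 in absent and 13.1, 8.69, 12.3 and 20.6 in expressing sections. It was higher in the absent section of each coverslip, while coverslip 4 was high in both, so the groups overlapped (log2 difference 0.46 ± 0.10, SE; edgeR adjusted p = 0.00012). Without coverslip 3 its adjusted p was 0.312, and without the coverslip block 0.986. It was above every blank barcode in 4 of 8 sections. P2ry12 in neurons, at 4.39 ± 0.83 and 3.57 ± 0.73, and the Wnt ligand gene Wnt10a, at 2.83 ± 0.07 and 2.31 ± 0.24 (SD, n = 4), were below the highest blank in each of the 8 sections. Both had a log2 difference of 0.29 ± 0.09 (SE) and an edgeR adjusted p of 0.0421, and neither was called after thinning. Aldh1l1 is an astrocyte gene and P2ry12 a microglial one. Their log2 differences, not called there, were also above 0 in those classes, at 0.27 for Aldh1l1 in astrocytes and 0.64 for P2ry12 in microglia. How much of both genes in neuronal outlines came from such cells was not tested.

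Gad2 in neurons was at 95.3, 82.1, 66.5 and 115 in absent and 99.2, 114, 103 and 115 in expressing sections. The gap was widest on coverslips 2 and 3 (log2 difference -0.30 ± 0.10, SE; edgeR adjusted p = 0.0583). Of the 5 inhibitory neuron genes, 0 were called, and their median log2 difference was -0.18 against 0.02 for all 138 genes. The 4 cortical layer genes had a median of -0.01, with Cux2 at 97.9 ± 29.2 and 92.0 ± 6.50 and Rorb at 58.4 ± 17.9 and 59.5 ± 9.70 (SD, n = 4). The absent sections spread more widely than the expressing ones in both genes. Slc17a6, a vesicular glutamate transporter of thalamic and other subcortical neurons, was at 69.9 ± 8.67 and 60.3 ± 9.85.

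Wnt pathway genes were described by their roles in the 3 classes. Of the 17 Wnt ligand genes, 0 were called in microglia, 0 in astrocytes and 1, Wnt10a, in neurons, and their median log2 differences were 0.03, 0.00 and 0.04. Wnt7a, a ligand made by astrocytes that acts on vessels and oligodendrocyte precursors, was at 43.0 ± 5.54 in astrocytes of absent and 35.96 ± 8.91 in those of expressing sections (SD, n = 4; log2 difference 0.22 ± 0.11, SE). In neurons Wnt4 was at 38.4, 31.1, 32.6 and 33.4 against 29.1, 29.7, 23.5 and 27.4, with no overlap (log2 difference 0.30 ± 0.10, SE; edgeR adjusted p = 0.0708). Wnt5a, a ligand of the pathway that does not use beta-catenin, was at 17.7 ± 1.62 and 19.3 ± 2.53 in astrocytes.

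Of the 19 receptors and co-receptors, 1 was called, Musk in astrocytes, and 0 in microglia or neurons. Their median log2 differences were -0.02 in microglia, -0.04 in astrocytes and 0.04 in neurons. The 15 genes that act inside the cell had medians of -0.04, -0.07 and -0.07, with 0 called in each class. The 7 Wnt antagonists had medians of 0.06, 0.03 and 0.09, and the 10 glypicans and syndecans, which hold Wnt proteins at the cell surface, 0.03, 0.08 and 0.01, again with 0 called. Only 2 of 17 ligands in microglia, 5 in astrocytes and 3 in neurons were above every blank barcode in all 8 sections. The other ligands did not exceed the highest blank in at least 1 section, and whether they differed from the blanks as a whole was not tested. By contrast 14 of the 15 intracellular genes were above every blank in microglia.

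**Figure D4:**
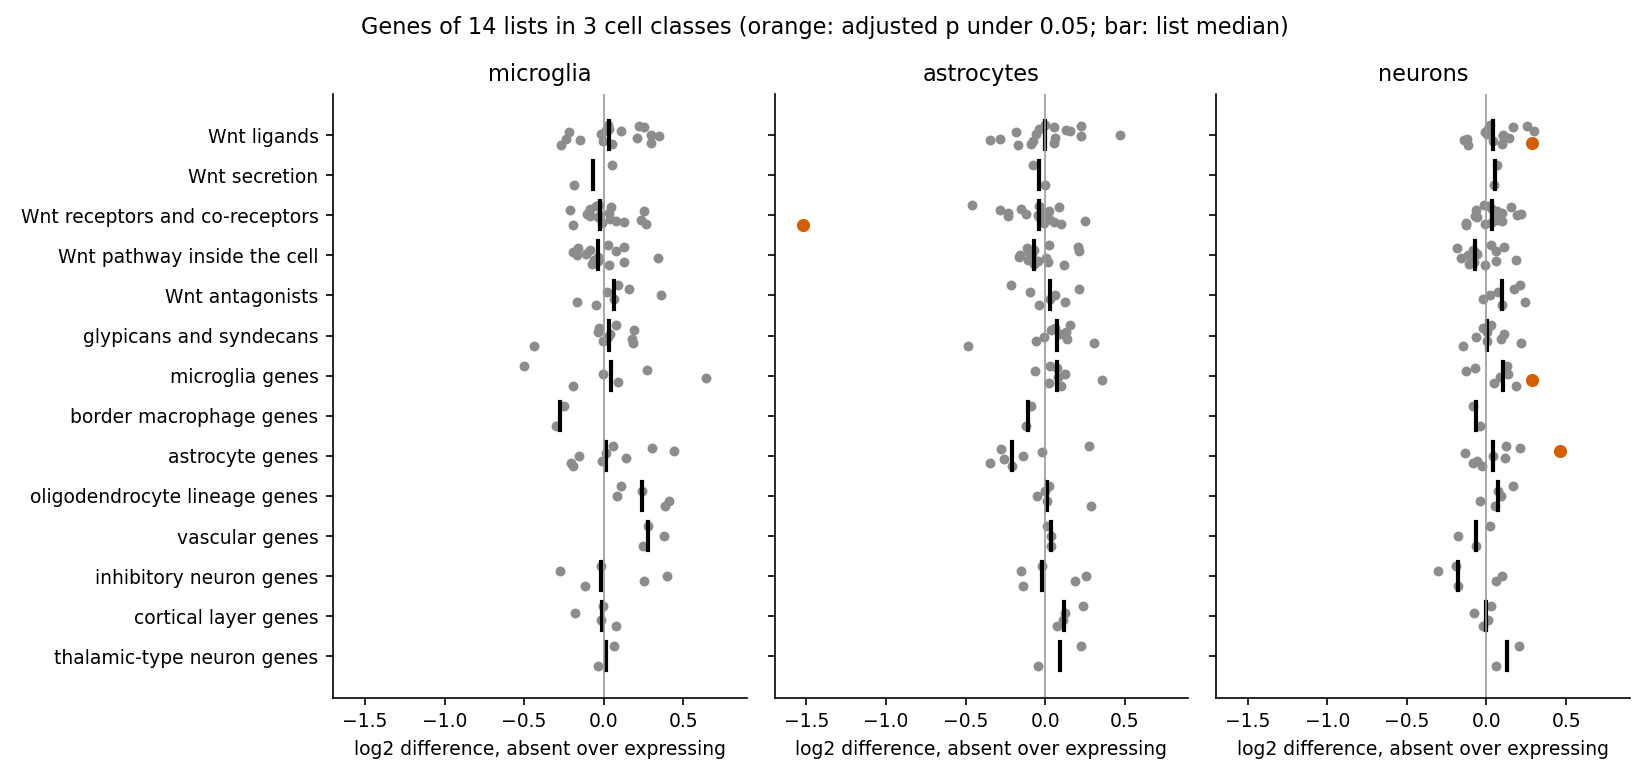
Log2 differences of absent over expressing sections (edgeR) for the genes of 14 lists in microglia, astrocytes and neurons, each dot a gene, with orange dots for an adjusted p under 0.05 and black bars for list medians. Musk at -1.52 in astrocytes is the point farthest from 0, and the medians of the Wnt lists lie between -0.07 and 0.09.

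The sum over all kept cells mixes the classes, and in it fewer cells of a type and less RNA per cell cannot be told apart. The edgeR test called 14 of 139 genes (10.1%), 8 higher and 6 lower in absent sections. Glul fell from 139 ± 17.1 to 87.0 ± 12.2 per 10000 (SD, n = 4; log2 difference -0.69 ± 0.09, SE; adjusted p = 7.16e-11), and Aldoc, Gad2, Sdc4, C1qa and Musk also fell. Aqp4, the astrocyte water channel, rose from 63.9 ± 13.1 to 84.3 ± 17.8 (log2 difference 0.38 ± 0.09, SE), and so did Aldh1l1, Wnt4, Sst, Ror2, Wif1, Sfrp4 and P2ry12. Sst, the somatostatin gene of an interneuron type, was at 77.0, 66.7, 65.6 and 69.1 in absent against 58.7, 54.0, 53.6 and 57.3 in expressing sections, with no overlap. Over all kept cells the highest blank barcode of a section reached 6.85 to 19.8 per 10000 in absent and 6.05 to 18.3 in expressing sections. Musk and P2ry12 were below it in every section, so their calls rest on sums below the highest false reading. In microglia alone P2ry12 was well above the highest blank, which reached at most 14.4 per 10000 in absent and 9.27 in expressing sections. The part of microglia in the P2ry12 sum over all kept cells was not tested. C1qa over all kept cells was below the highest blank in at least both sections of coverslip 2 and the absent section of coverslip 1. In the latter it was at 11.8 in upper-layer and 13.3 in other squares, against a highest blank of 19.8. Of the 7 Wnt antagonists, which include Wif1 and Sfrp4, 1 was above every blank in all 8 sections. With low-signal squares left out, 3 genes were called, Glul, C1qa and Musk, all lower in absent sections. In upper-layer squares alone 1 gene was called, Glul. Leaving out coverslip 2 left 0 calls by edgeR, with 20 genes at an unadjusted p under 0.05, and leaving out coverslip 3 left 1, Glul. The blank barcodes took 1.45%, 1.60%, 1.53% and 1.19% of all counts in absent and 1.46%, 1.34%, 1.34% and 1.13% in expressing sections.

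Whether the classes differed in their response was tested on the differences within each coverslip. With limma, 2 of 135 genes (1.48%) differed between astrocytes and microglia. The log2 difference of Glul was lower in astrocytes by -0.79 ± 0.11 (SE, n = 4 coverslips; adjusted p = 0.00766), on 4 of 4 coverslips. In microglia Glul was at 189, 215, 175 and 186 in absent and 149, 237, 180 and 190 in expressing sections, a log2 difference of -0.03. The same test called Musk (-1.30 ± 0.13, SE; adjusted p = 0.00231), but Musk was below the highest blank barcode in microglia of all 8 sections and above it in astrocytes of 1 section, so the size of this difference rests on values at the level of false readings. Between neurons and microglia limma called 0 of 136 genes, with 12 at an unadjusted p under 0.05. The interaction of sex and section type was called for 0 genes by edgeR in each class, with 4 of 137 genes at an unadjusted p under 0.05 in microglia, 5 of 137 in astrocytes and 1 of 138 in neurons.

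**Figure D5:**
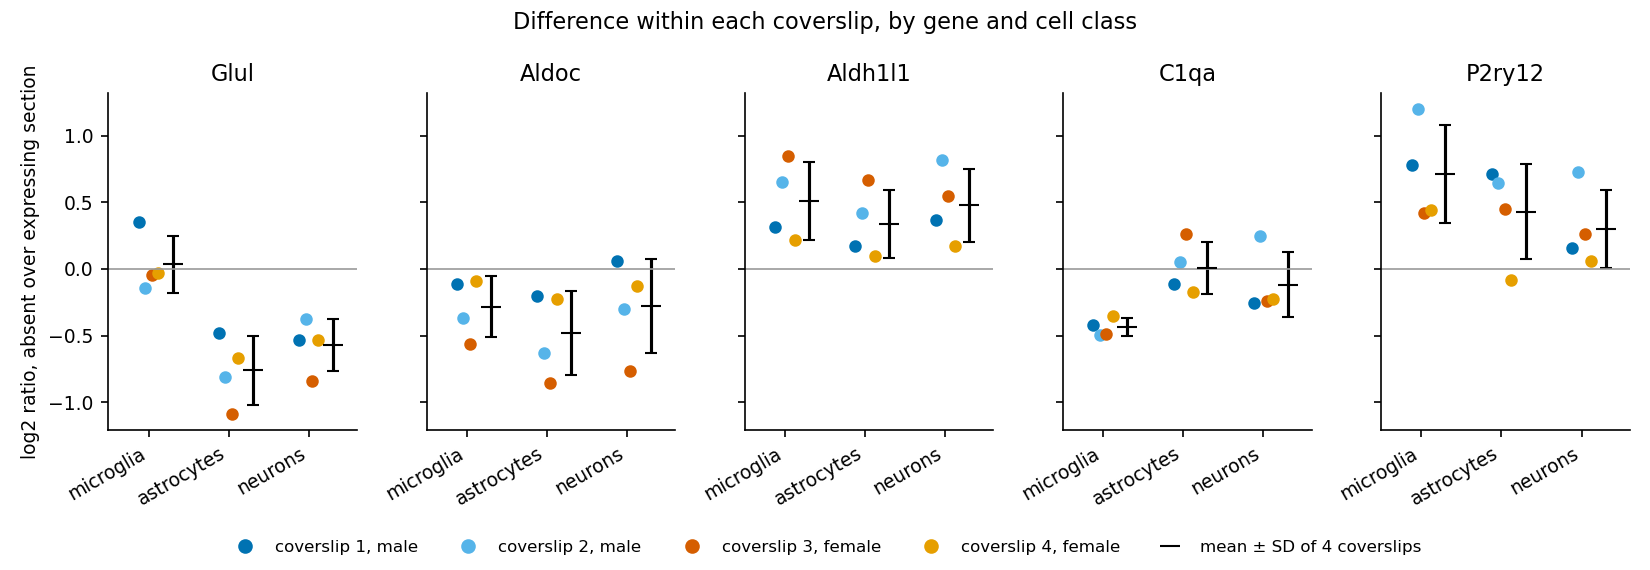
Log2 ratios of absent over expressing section within each coverslip, from counts per 10000 gene counts, for Glul, Aldoc, Aldh1l1, C1qa and P2ry12 in the 3 classes, with black marks giving mean ± SD of 4 coverslips. Glul lies below 0 on all 4 coverslips in astrocytes and neurons and on both sides of 0 in microglia, where its edgeR log2 difference was -0.03, and C1qa lies below 0 on all 4 coverslips in microglia.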

How the data were processed

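Per the file headers, the deposited tables hold raw transcript counts for each segmented cell, and every value was a whole number; the files also give each cell's volume and centre as other measures without a stated unit. Decoding and segmentation software is not given in the sources used here. The members, gene lists and tests were chosen with earlier results of these data known. Sections were found by position: cells were binned into 100-unit squares, and of the joined squares holding 4 or more cells the 2 largest groups were kept. Counts were summed per section and class, and genes with at least 10 counts in at least 4 of 8 sums were tested with edgeR 4.0.16 (glmQLFit, TMM factors between 0.900 and 1.09, coverslip as block, Benjamini-Hochberg). Cx3cl1, blanks and the genes that chose a class were left out of the calls. Coverslips pair the sections because the series text places both genotypes on 1 coverslip. Differences between classes used limma 3.58.1; DESeq2 1.42.0 was an alternative, with thinning, tissue, class and normalization settings. Named genes were those called, else the 10 of lowest p in a class, list extremes and a fixed set of markers. Some genes that this rule names are not reported here. Code was tested on simulated data.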

Additional observations from a re-analysis of the deposited data

Results flagged for a closer look

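The expressing section of coverslip 4 stood apart from the other 3 expressing sections in density of astrocytes, at 424 per 1e+06 square coordinate units, and of microglia, at 76.2. Chance sets about 1 in 20 such groups apart. It was also the deepest section, at 369 gene counts per kept cell; the part of depth was not tested beyond thinning. The section difference of Glul was lower in astrocytes than in microglia by -0.79 on the log2 scale, and that of Musk by -1.30 (limma, as above); Musk in microglia was below the highest blank barcode in all 8 sections, so the size of its difference rests on values at the level of false readings. Gene counts per neuron were higher in the absent sections of both male coverslips and lower in those of both female coverslips, a gap of 0.48 between the mean log2 ratios that was not tested.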

How the results depend on the processing

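The coverslip pairing mattered for counts of calls: without the replicate block, edgeR called 1 gene in astrocytes (Musk), 1 in neurons (Glul), 1 in all cells (Glul) and 0 in microglia. With library totals 2 genes were called in neurons and 2 in all cells. The volume offset moved the median of all genes to -0.24 in microglia, -0.15 in astrocytes and -0.12 in neurons, and gave 6 calls in astrocytes, 0 in neurons (1 at an unadjusted p under 0.05) and 1 in all cells. DESeq2 called 2 genes in microglia, 5 in astrocytes and 7 in neurons. In microglia, doubled class thresholds, thinning and cells in no other class each gave 1 call (C1qa), and leaving out cells with Mrc1 plus Lyve1 of 3 or more gave 1 (P2ry12). In neurons, doubled thresholds, thinning, upper-layer squares, cells in no other class and neurons with Gad1 plus Gad2 of 5 or more each gave 2 calls, Glul and Aldh1l1. Upper-layer squares alone left 1 call in astrocytes and 1 in all cells, and leaving out low-signal squares 3 in all cells. Leaving out 1 coverslip gave 0 to 2 calls in microglia, 0 to 3 in astrocytes, 1 to 7 in neurons and 0 to 10 in all cells. It gave 2 to 3 between astrocytes and microglia and 0 to 2 between neurons and microglia. Where the main setting had calls, the counts of 0 came without coverslip 3 in astrocytes and without coverslip 2 in all cells. Under these settings Glul in astrocytes lay between -0.96 and -0.72 on the log2 scale, and in neurons between -0.71 and -0.51.

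Several log2 ratios turned sign. Thinning gave 0.034 for counts per cell of microglia, 0.047 for astrocytes and 0.10 for neurons. It brought the mean counts per kept cell of paired sections together by design, so these values cannot show a difference in depth. The matched totals included Cx3cl1, which the counts per cell leave out. Thinning also gave 0.13 for the share and 0.10 for the density of astrocytes, and 0.12 for upper-layer microglia density. Upper-layer squares gave 0.11 and 0.12 for the share and density of astrocytes and -0.018 for the share of blank counts. Without low-signal squares astrocyte density was at 0.0034 and upper-layer microglia density at 0.012. Leaving out 1 coverslip gave -0.19 to 0.038 for the share of astrocytes, -0.038 to 0.0036 for neuron volume and -0.12 to 0.077 for upper-layer microglia density. In upper-layer squares the log2 difference of Musk was 0.013 in astrocytes and 0.017 in all cells, that of Sdc4 0.011 and that of Sfrp4 -0.038 in all cells. The cause of the other sign changes was not tested.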
